A study of Mus musculus with 16 samples.

Results

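The 10 genes described here encode the peptide and amino acid transporters of the small-intestinal epithelium, and they were followed through the ileum of diabetic mice with and without insulin. They were chosen by name for what they carry, with earlier results of these data known, as Slc15a1, Slc6a19, Slc6a20a, Slc7a9, Slc3a1, Slc7a7, Slc7a8, Slc3a2, Slc1a1 and Slc36a1. Each was found as 1 row in all 16 deposited tables, so that they make up 10 of the 41740 genes listed, and all 10 were among the 15267 genes with enough counts to be tested.

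Total RNA of the whole ileal wall was sequenced in 16 mice at 20 weeks of age, all of them STAM mice. STAM mice are made diabetic with streptozotocin at day 2 after birth and fed a high-fat diet from week 4. Control-STAM-nonINS, the untreated controls (n = 4), and Control-STAM-INS, the insulin-treated controls (n = 6), carried the genotype labelled Vilin-Cre(-); InsR-flox, that is, floxed insulin receptor alleles without Cre, and the second of them received insulin from week 6. The libraries labelled ieIRKO-STAM-INS (n = 6), also called the ieIRKO label below, came from insulin-treated mice with floxed alleles and Cre driven by the Villin promoter, which acts in the intestinal epithelium. All 3 groups thus shared floxed alleles, streptozotocin and the high-fat diet, and mice without diabetes induction are not analysed here. Nothing in the labels separates the effect of the Villin-Cre transgene from that of the receptor deletion.

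Between 13288018 and 22215382 reads were counted per library. Levels are given as CPM, which are counts scaled to a common library size by TMM. The targeted gene Insr, the insulin receptor, was at 105 ± 12.3 CPM (SD, n = 4) in the untreated controls, 62.7 ± 10.1 (SD, n = 6) in the insulin-treated controls and 67.2 ± 13.4 (SD, n = 6) under the ieIRKO-STAM-INS label. The fitted level of Insr was not lower in the libraries with this label than in the insulin-treated controls (log2 fold change 0.10, SE 0.13, 95% confidence interval -0.15 to 0.35, adjusted p = 0.805 by the quasi-likelihood test of edgeR). The whole wall also holds cells in which Villin-Cre does not act, and a whole-gene count does not show whether a floxed part was lost. Every direction given below for that group rests on its label.

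Dietary protein is cut by brush-border peptidases into short peptides and free amino acids, which enterocytes take up across the apical membrane and release across the basolateral membrane. Apical uptake runs through a proton-coupled peptide carrier and several amino acid carriers with different substrates. Some carriers work only as pairs, in which a heavy chain of the SLC3 family brings a light chain of the SLC7 family to the membrane. Slc3a1 is the heavy chain of the apical cystine and dibasic amino acid exchanger with Slc7a9, and Slc3a2 is that of the basolateral exchangers with Slc7a7 or Slc7a8.

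Sequences upstream of 3 genes that stand out in the results are shown. No level or test result rests on these sequences. Slc36a1 was the transporter whose difference passed the test, and Slc15a1 and Slc3a1 were among the 4 that varied most between mice. Each is the 250 bases before a RefSeq start on GRCm38.p6, read 5′ to 3′ on the strand of the gene, with matches to the searched motifs in capitals. All 10 genes had at least 1 such window, and the 15 windows of the 10 genes were searched on both strands.
Slc36a1, chr11:55204090-55204339, plus strand: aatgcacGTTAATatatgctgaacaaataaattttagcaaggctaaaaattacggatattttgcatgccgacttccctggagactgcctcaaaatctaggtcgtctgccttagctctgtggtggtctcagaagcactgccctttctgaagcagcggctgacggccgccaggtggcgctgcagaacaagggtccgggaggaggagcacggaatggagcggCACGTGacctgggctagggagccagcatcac
Slc3a1, chr17:85028097-85028346, plus strand: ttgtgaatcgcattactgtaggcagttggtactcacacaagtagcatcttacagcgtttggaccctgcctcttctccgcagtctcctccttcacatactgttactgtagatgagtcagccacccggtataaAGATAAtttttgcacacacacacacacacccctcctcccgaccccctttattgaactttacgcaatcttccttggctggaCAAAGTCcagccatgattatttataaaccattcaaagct
Slc15a1, chr14:121505255-121505504, minus strand: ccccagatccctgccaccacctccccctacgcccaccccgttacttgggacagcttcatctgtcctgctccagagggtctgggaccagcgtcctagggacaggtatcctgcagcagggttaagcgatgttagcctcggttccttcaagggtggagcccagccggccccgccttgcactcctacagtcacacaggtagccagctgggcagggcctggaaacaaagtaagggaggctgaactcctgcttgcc

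The E-box CACGTG stood 31 to 26 bases before the start of Slc36a1, and 6.02% of all 32851 RefSeq windows of this length hold it. The same window held the HNF1-type letters GTTAAT, found in 6.43% of all windows. In the Slc3a1 window the HNF4-type letters CAAAGTC lay 39 to 33 bases before the start (3.84% of all windows), and the GATA letters AGATAA lay further upstream (9.99% of all windows). The Slc15a1 window held none of the letters searched, which also included TTTATG for CDX2 (10.8% of all windows) and GTAAACA for FOXO (3.17%), neither of which was in a window of the 10 genes. No 2 of these motifs overlapped in the windows shown. These matches are letters only.

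Insulin treatment was compared first within the control genotype. Of the 10 transporters, Slc36a1 was higher in the insulin-treated controls than in the untreated controls past the threshold of an adjusted p of 0.05, and the other 9 did not pass it. Over all genes tested, 10.5% passed in either direction and 3.73% were higher, so that 1 of 10 is near the background. With library factors that level the epithelial markers, 130 genes were higher and 571 lower, against 570 and 1032 with TMM. In the fitted values 9 of the 10 were higher and Slc6a19 was lower, and the median of their log2 fold changes was 0.23 against -0.00 over all genes tested. Without Control-STAM-nonINS replicate 4, 8 were higher and the median was 0.15. At an unadjusted p under 0.05 there were 2 of 10, Slc36a1 and Slc7a9, against 25.4% of all genes. In the same 2 genes the groups did not overlap, which held for 10.6% of all genes. In RNA of the whole wall, fewer cells of a type and less RNA per cell cannot be told apart.

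The libraries labelled ieIRKO-STAM-INS were then set against the insulin-treated controls, which asks what the epithelial receptor adds under insulin. None of the 10 passed the test by edgeR, against 0.223% of all genes, and DESeq2 also called 0. Fitted values were lower for 9 of the 10 and higher for Slc36a1, and their median log2 fold change was -0.17 against 0.02 over all genes. Without ieIRKO-STAM-INS replicate 5, 6 were lower and 4 higher, and the median was -0.09. At an unadjusted p under 0.05 there was 1, Slc3a2, against 11.3% of all genes. The groups overlapped for each of the 10, while 0.845% of all genes did not overlap. The levels of several marker lists are given beside this contrast. All 6 listed genes of B and plasma cells had higher fitted values. None of the 6 passed by edgeR, 6 had an unadjusted p under 0.05 and DESeq2 called 4 higher. None was at 0 in any library, and their summed level was 1655 to 3115 CPM in the libraries labelled ieIRKO-STAM-INS against 959 to 1541 CPM in the insulin-treated controls. The median summed level of 12 enterocyte genes was 19241 CPM under the ieIRKO label against 25706 CPM in the insulin-treated controls, with ranges of 7054 to 34733 and 19230 to 33801 CPM. For 8 genes of the distal ileum the medians were 7899 and 9839 CPM (ranges 6061 to 10889 and 8148 to 11475), and for 8 genes of the proximal small intestine 831 and 1877 CPM (ranges 289.9 to 3509 and 707 to 4399). The groups overlapped in these 3 sums, and none of the genes in the 3 lists passed by edgeR or by DESeq2, while 2, 2 and 0 had an unadjusted p under 0.05 by edgeR. The part of cell makeup or position along the gut in the transporter values was not tested.

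Against the untreated controls, the libraries labelled ieIRKO-STAM-INS had 1 transporter past the threshold, Slc36a1, where 13.3% of all genes passed and 5.74% were higher. At an unadjusted p under 0.05 there were 2, Slc36a1 and Slc6a19, against 29.4% of all genes. Fitted values were higher for 6 and lower for 4, with a median of 0.02 against 0.01 over all genes. The median was -0.03 (4 higher) without Control-STAM-nonINS replicate 4 and 0.17 (8 higher) without ieIRKO-STAM-INS replicate 5. Slc36a1 was also the 1 transporter without overlap, against 8.56% of all genes. The 3 comparisons share groups, so they are not independent of each other. The plot of CPM by library shows how far the mice of one group differed for most of these genes.

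**Figure D1:**
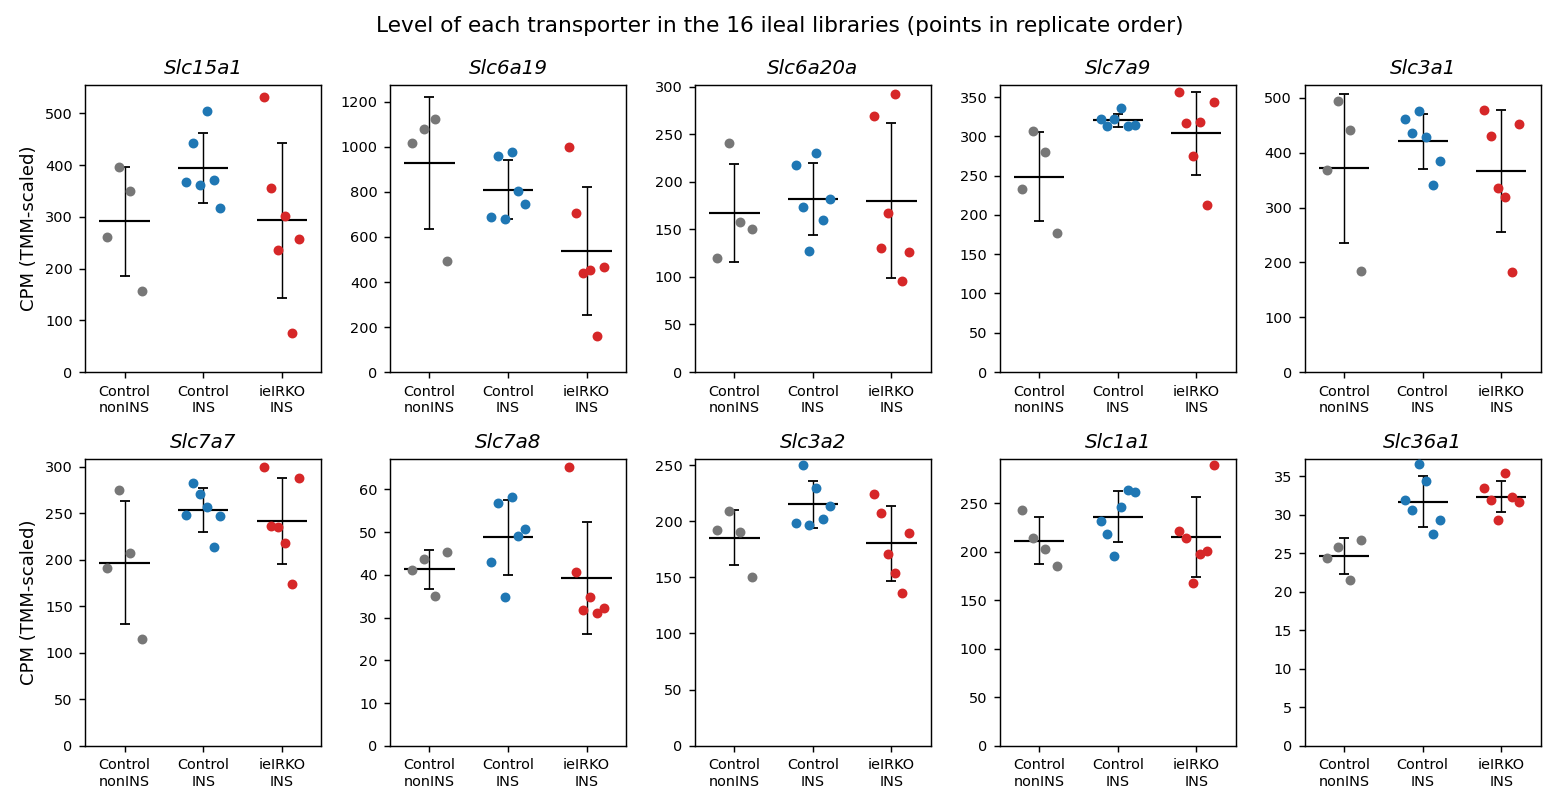
CPM of the 10 transporters in each library (points, in replicate order), with the group mean (horizontal line) and SD (error bar), for untreated controls (grey), insulin-treated controls (blue) and the ieIRKO label (red). Every axis starts at 0. Slc36a1 lay between 21.5 and 26.8 CPM in Control-STAM-nonINS and between 27.6 and 36.5 CPM in Control-STAM-INS, whereas Slc15a1 ran from 76.3 to 532 CPM within the libraries labelled ieIRKO-STAM-INS.

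Slc36a1 encodes a proton-coupled carrier of small neutral amino acids such as glycine, alanine and proline, and it is found at the apical membrane and on lysosomes. It lies on chromosome 11 of GRCm38 from 55204350 to 55236330, on the plus strand. In the untreated controls its level was 24.4, 25.9, 21.5 and 26.8 CPM in the 4 mice. In the insulin-treated controls the lowest, median and highest levels were 27.6, 31.2 and 36.5 CPM. All 6 insulin-treated control mice lay above all 4 untreated mice, though the nearest values were close. The difference was 1.29-fold (95% confidence interval 1.14 to 1.46, log2 fold change 0.36, SE 0.09, adjusted p = 0.0174 by edgeR). Permutation of log2 CPM over all arrangements, exact and two-sided, gave p = 0.00952, where 0.00476 is the smallest that 4 against 6 mice allow.

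The libraries labelled ieIRKO-STAM-INS held Slc36a1 at 29.3, 32.2 and 35.4 CPM (lowest, median and highest), again all above the untreated controls. Against that group the log2 fold change was 0.39 (SE 0.09, adjusted p = 0.0096 by edgeR, exact permutation p = 0.00476). Against the insulin-treated controls it was 0.03, with a 95% confidence interval from -0.13 to 0.19. The 2 insulin-treated groups were not shown to differ in Slc36a1, and the interval of their ratio ran from 0.913 to 1.14. When library factors were set so that the epithelial markers were level in all libraries, the log2 fold changes against the untreated controls were 0.27 (adjusted p = 0.477) and 0.36 (adjusted p = 0.279), so both calls were lost under that scaling. Without Control-STAM-nonINS replicate 1 or 3, the adjusted p of the insulin comparison was 0.0516 or 0.0651.

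Slc15a1 encodes the proton-coupled carrier of di- and tripeptides at the brush border, through which enterocytes take up peptide-bound amino acids. The gene lies on chromosome 14 from 121459621 to 121505252, on the minus strand. Its level in the untreated controls was 261, 396, 350 and 157 CPM. Replicate 4 was the lowest of the 4. In the insulin-treated controls it was 317, 369 and 505 CPM (lowest, median, highest). Under the ieIRKO label it was 76.3, 279 and 532 CPM, so that the lowest and highest values of all 16 libraries came from the same group. The log2 fold change was 0.44 with insulin (SE 0.38, adjusted p = 0.509) and -0.43 for the ieIRKO label against the insulin-treated controls (SE 0.33, adjusted p = 0.662). Both intervals were wide, from -0.30 to 1.18 and from -1.08 to 0.23, and the ieIRKO label against the untreated controls had 0.01 (interval -0.72 to 0.74). Without Control-STAM-nonINS replicate 4 the first was 0.23, and the second ran from -0.69 without ieIRKO-STAM-INS replicate 1 to -0.23 without replicate 5. The third turned to -0.20 without Control-STAM-nonINS replicate 4 and was 0.21 without ieIRKO-STAM-INS replicate 5. Differences of these sizes were not detectable beyond the spread between mice.

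Slc6a19 encodes the main sodium-dependent carrier of neutral amino acids at the brush border. The gene lies on chromosome 13 from 73679745 to 73704865, on the minus strand. The untreated controls held it at 1019, 1078, 1126 and 495 CPM. The first 3 mice were close together and replicate 4 stood apart. The insulin-treated controls held it at 681, 775 and 977 CPM, and the libraries labelled ieIRKO-STAM-INS at 160, 459 and 998 CPM (lowest, median, highest). In that group 4 of the 6 mice were below every insulin-treated control, while replicate 1 was above all 6 of them and replicate 2 was within their range.

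Slc6a19 did not pass the test in any comparison. For the ieIRKO label against the insulin-treated controls, the log2 fold change was -0.59 (SE 0.32, 95% confidence interval -1.22 to 0.03, adjusted p = 0.517), with an exact permutation p of 0.0411 before any adjustment. Against the untreated controls it was -0.79 (SE 0.35, 95% confidence interval -1.48 to -0.10, adjusted p = 0.148). When each library was left out in turn, the latter log2 fold change ran from -1.06 without ieIRKO-STAM-INS replicate 1 (adjusted p = 0.0373) to -0.60 without replicate 5 (adjusted p = 0.150), and in 9 of 10 cases it did not pass. With insulin in the control genotype the log2 fold change was -0.20 (SE 0.35, adjusted p = 0.780).

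Slc6a20a encodes an apical carrier of proline and other imino acids. It lies on chromosome 9 from 123634770 to 123678885, on the minus strand. Its levels were 120, 240.2, 158 and 150 CPM in the untreated controls, 127 to 231 CPM in the insulin-treated controls and 95.5 to 292 CPM under the ieIRKO label. The ranges of the 3 groups overlapped, with log2 fold changes of 0.12 (SE 0.29), -0.01 (SE 0.26) and 0.11 (SE 0.29) and adjusted p from 0.841 to 0.989. Among the transporters, this gene shared the largest part of its 50-base words with other genes. Of these words 15.3% also occur in its neighbour Slc6a20b, which makes its counts less certain. Its exons also overlap Gm17120, Ccr9 and Gm17200 on the other strand. Slc6a20b itself was between 2.58 and 12.8 CPM.

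The cystine and dibasic amino acid exchanger is made of Slc7a9, its transporting light chain, and Slc3a1, its heavy chain. Slc7a9 lies on chromosome 7 from 35448796 to 35466036, and Slc3a1 on chromosome 17 from 85028376 to 85064236, both on the plus strand. Slc7a9 was at 232, 306, 279 and 177 CPM in the untreated controls. In the insulin-treated controls it was at 313, 319 and 336 CPM (lowest, median, highest), so that all 6 mice lay above all 4 untreated mice. Under the ieIRKO label it was at 212, 318 and 356 CPM. The insulin difference was 1.29-fold (log2 fold change 0.37, SE 0.14, exact permutation p = 0.00476), but its adjusted p was 0.113. With each library left out in turn it did not pass in 9 of 10 cases, from 0.23 without Control-STAM-nonINS replicate 4 (adjusted p = 0.314) to 0.49 without replicate 2 (adjusted p = 0.0424). For the ieIRKO label against the insulin-treated controls the log2 fold change was -0.08 (95% confidence interval -0.33 to 0.17), and against the untreated controls it was 0.29 (adjusted p = 0.188).

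The 6 insulin-treated controls differed little in Slc7a9, with a coefficient of variation of 2.69%. Among 477 genes within 0.5 log2 units of its mean level, this spread was at percentile 0.629 in that group, against percentile 77.8 in the untreated controls and 69.4 under the ieIRKO label. Its partner Slc3a1 had a coefficient of variation of 11.9% in the same 6 mice.

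Slc3a1 was at 368, 494, 442 and 183 CPM in the untreated controls, 340.5 to 475 CPM in the insulin-treated controls and 182 to 478 CPM in the libraries labelled ieIRKO-STAM-INS. Replicate 4 of the untreated group and replicate 5 of the ieIRKO label held nearly the same low level. The log2 fold changes were 0.18 (SE 0.26), -0.20 (SE 0.23) and -0.02 (SE 0.26), none past the test (adjusted p 0.717, 0.787 and 0.968). The direction of the third turned under other scalings, and that of the first turned without the 2 libraries just named. Its exons overlap those of Prepl on the other strand. The ratio of Slc7a9 to Slc3a1 CPM, read only between libraries, had medians of 0.632, 0.752 and 0.788 in the 3 groups, with the highest values of 0.964 and 1.16 in Control-STAM-nonINS replicate 4 and ieIRKO-STAM-INS replicate 5.

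At the basolateral membrane, Slc7a7 carries dibasic amino acids out of the enterocyte in exchange for neutral ones. It lies on chromosome 14 from 54369442 to 54417780, on the minus strand. Its levels were 192, 275, 207 and 114 CPM in the untreated controls. They ran from 214 to 282 CPM in the insulin-treated controls (median 253) and from 174 to 299 CPM under the ieIRKO label (median 236). The groups overlapped, with a log2 fold change of 0.36 for insulin (SE 0.18, adjusted p = 0.229) and -0.07 for the ieIRKO label against the insulin-treated controls (95% confidence interval -0.39 to 0.25). The first of these was 0.58 without Control-STAM-nonINS replicate 2 (adjusted p = 0.0445) and 0.17 without replicate 4 (adjusted p = 0.539), and it did not pass in 9 of 10 such cases. Its exons overlap those of Oxa1l on the other strand.

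Slc7a8, a basolateral exchanger of neutral amino acids, lies on chromosome 14 from 54722209 to 54781946, on the minus strand. It was at 41.1, 43.8, 35.0 and 45.3 CPM in the untreated controls, where replicate 4 was the highest and not the lowest. The insulin-treated controls ranged from 34.9 to 58.1 CPM (5 of 6 mice at 42.9 or more). Under the ieIRKO label 5 mice lay between 31.1 and 40.7 CPM and replicate 1 stood apart at 65.2 CPM. The log2 fold change for that label against the insulin-treated controls was -0.31 (SE 0.17, adjusted p = 0.521), and it ran from -0.52 without replicate 1 (adjusted p = 0.0851) to -0.26 without replicate 5 (adjusted p = 0.751). With insulin it was 0.24 (SE 0.19, adjusted p = 0.473), and for the ieIRKO label against the untreated controls -0.07 (interval -0.45 to 0.30).

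Slc3a2, the heavy chain shared by Slc7a7, Slc7a8 and other light chains, lies on chromosome 19 from 8706882 to 8723369, on the minus strand. It was at 192, 209, 190.1 and 151 CPM in the untreated controls, at 197, 208 and 250 CPM in the insulin-treated controls and at 136, 180.0 and 224 CPM under the ieIRKO label (lowest, median, highest). In the last group 4 of 6 mice were below every insulin-treated control, and 2 were within their range. The log2 fold change was -0.26 (SE 0.12, 95% confidence interval -0.48 to -0.03, adjusted p = 0.418), with an exact permutation p of 0.0584. With insulin it was 0.21 (SE 0.13, adjusted p = 0.324), and for the ieIRKO label against the untreated controls -0.04 (interval -0.30 to 0.21).

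The ratio of Slc7a7 to Slc3a2 CPM had medians of 1.04, 1.14 and 1.36 in the untreated controls, the insulin-treated controls and the libraries labelled ieIRKO-STAM-INS. The ranges, 0.759 to 1.32, 1.06 to 1.38 and 1.14 to 1.52, overlapped. For Slc7a8 to Slc3a2 the medians were 0.212, 0.233 and 0.211. Ratios of CPM are not corrected for gene length and say nothing of how many light chains there are per heavy chain.

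Slc1a1 encodes the apical carrier of glutamate and aspartate. It lies on chromosome 19 from 28835049 to 28913960, on the plus strand. Levels were 243, 214, 203 and 186 CPM in the untreated controls, 196 to 264 CPM in the insulin-treated controls and 168 to 290.0 CPM in the libraries labelled ieIRKO-STAM-INS. Its log2 fold changes were 0.16 (SE 0.13), -0.13 (SE 0.12) and 0.02 (SE 0.13), with adjusted p of 0.475, 0.692 and 0.921. The intervals held all 3 changes between -0.36 and 0.41, and the third changed sign when the 2 low libraries were left out. Its exons overlap those of 4430402I18Rik on the other strand.

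**Figure D2:**
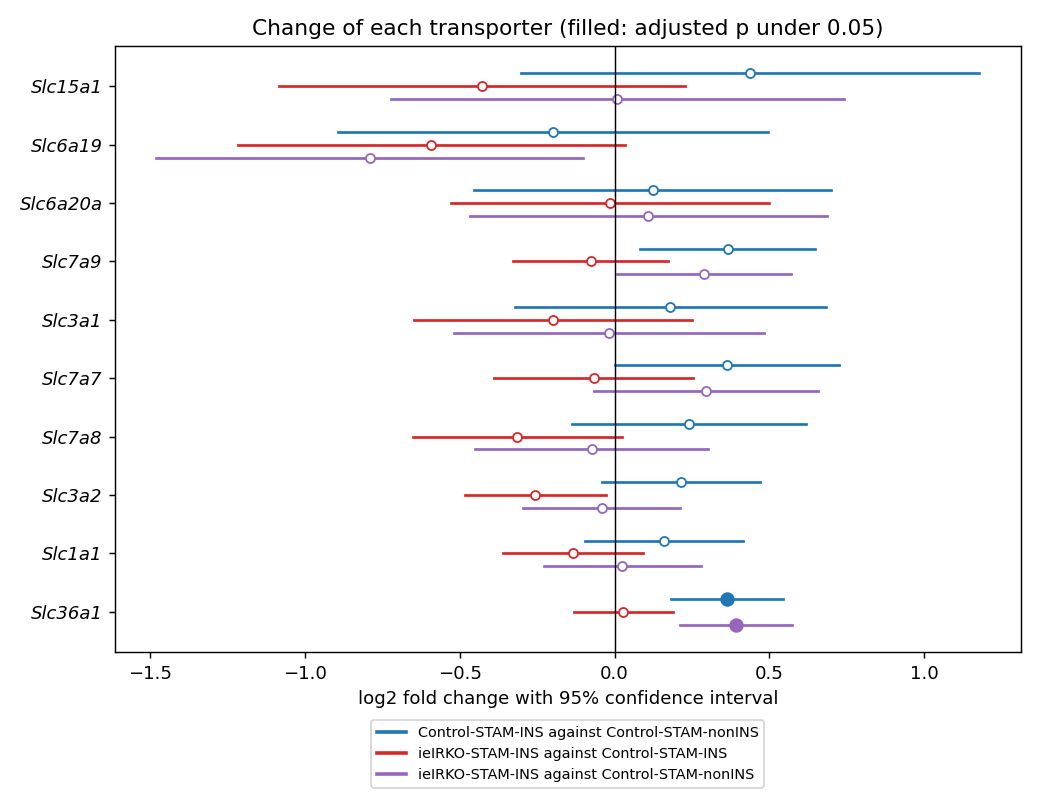
Log2 fold changes (points) with 95% confidence intervals (lines) of the 10 transporters in the 3 comparisons, with filled points where the adjusted p was under 0.05. The filled points are those of Slc36a1 at 0.36 and 0.39, and the intervals of Slc15a1 and Slc6a19 are the widest.

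Levels of different genes were compared per kb of exon, with the exons of all annotated transcripts of a gene joined. Annotated transcripts numbered 1 for Slc3a1, 7 for Slc6a19 and 12 for Slc7a7. The joined length can exceed that of the transcripts present, so the order need not be that of transcript abundance. In Slc3a1, 601 bases of exon overlap Prepl on the other strand. Over the 16 libraries Slc3a1 had the highest mean, 171 CPM per kb, followed by Slc6a19 with 147 and Slc7a9 with 111 CPM per kb. Slc7a7 (70.9), Slc15a1 (67.6), Slc3a2 (55.1) and Slc6a20a (43.4 CPM per kb) came next. Slc1a1 had 26.9, Slc7a8 8.66 and Slc36a1 5.37 CPM per kb. The order was not the same in each group. In the untreated controls the mean of Slc6a19 (186 CPM per kb) was above that of Slc3a1 (164 CPM per kb). In the insulin-treated controls Slc15a1 (80.7) was above Slc7a7 (76.4 CPM per kb). Neighbours in this order overlapped in their range over libraries, except Slc1a1 and Slc7a8. Slc3a1 was above Slc6a19 in 10 of 16 libraries and Slc7a7 above Slc15a1 in 9, whereas Slc7a9 was above Slc7a7, Slc1a1 above Slc7a8, and Slc7a8 above Slc36a1 in 16 of 16. The gene whose difference passed the test was thus the one with the lowest level per kb, at 330 to 697 counts per library.

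**Figure D3:**
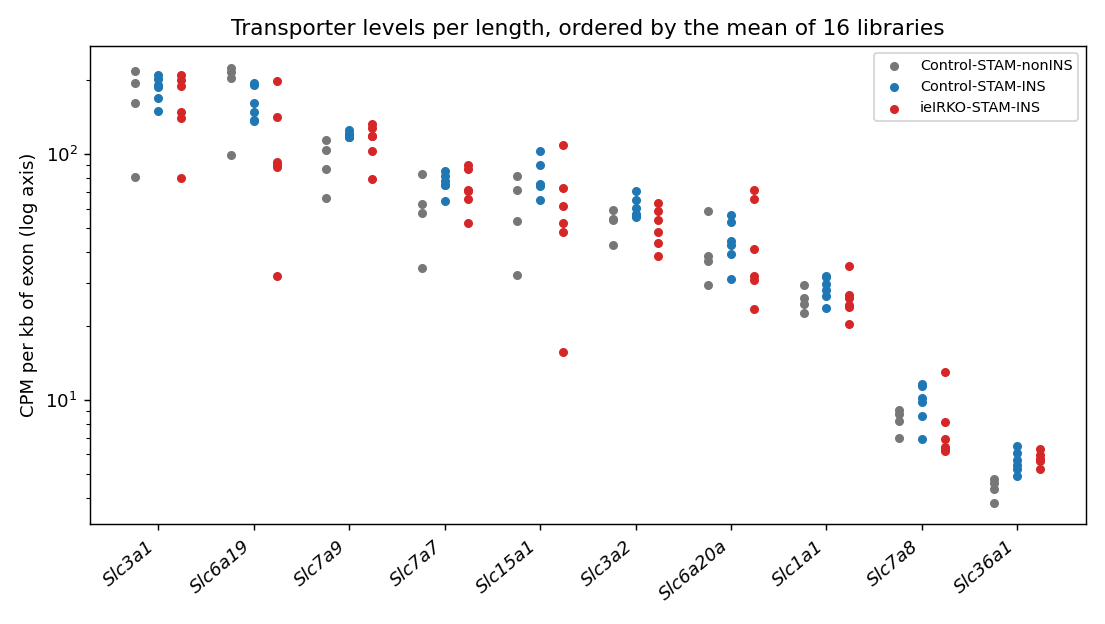
CPM per kb of exon (log axis) of the 10 transporters in each of the 16 libraries, ordered by their mean and coloured by group. Means fell from 171 CPM per kb for Slc3a1 to 5.37 for Slc36a1.

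Several of the transporters differed widely between mice of one group. The pooled SD of log2 CPM within groups was 0.67 for Slc15a1, 0.63 for Slc6a19 and 0.49 for Slc6a20a. Among genes of like level these were at percentiles 98.7, 96.3 and 96.4, while Slc3a1 was at 93.7, Slc7a8 at 89.5, Slc7a7 at 82.1, Slc7a9 at 67.5, Slc3a2 at 61.4 and Slc1a1 at 58.2. Slc36a1, with an SD of 0.13, was at percentile 16.5. The spread was unequal between groups. The SD of log2 CPM of Slc15a1 was 0.59 in the untreated controls, 0.24 in the insulin-treated controls and 0.94 under the ieIRKO label, and that of Slc6a19 was 0.56, 0.23 and 0.89. The highest level of Slc15a1 was 6.97 times the lowest under the ieIRKO label, and 2.26 times without replicate 5.

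In 2 libraries many transporters were low at once. Control-STAM-nonINS replicate 4 was the lowest of its group in 7 of the 10 genes, and ieIRKO-STAM-INS replicate 5 in 8 of the 10. In replicate 5 Slc6a19 was at 160 CPM against 442 to 998 in the rest of its group, and Slc15a1 at 76.3 against 236 to 532 CPM. Slc36a1, at 32.4 CPM, was in the middle of the same group. Conversely ieIRKO-STAM-INS replicate 1 was the highest of its group in 7 genes and Control-STAM-nonINS replicate 2 in 6.

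Marker lists moved with these 2 libraries. In ieIRKO-STAM-INS replicate 5 the summed level of 12 enterocyte genes was 7054 CPM, against 18798 to 34733 CPM in the other 5 of its group, and that of 14 partner proteins and brush-border peptidases was 7772 against 14411 to 23262 CPM. The sum of 11 general epithelial genes was 16276 CPM, within the 16063 to 21435 CPM of the others. The proximal sum (289.9 against 687 to 3509 CPM) and the distal sum (6061 against 7233 to 10889 CPM) were the lowest of that group. B and plasma cell genes (3115 CPM) and 7 smooth muscle genes (3629 CPM) were the highest. In Control-STAM-nonINS replicate 4 the epithelial sum was 13342 CPM, against 19616 to 20974 CPM in the other 3, the peptidase sum 10050.4 against 17538 to 22861 CPM, and the enterocyte sum 20881 against 23452 to 33464 CPM. In this library too the proximal sum (628 against 707 to 2382 CPM) and the distal sum (8809 against 9946 to 13353 CPM) were the lowest of the group, and the B and plasma cell sum was the highest (1771 against 718 to 1115 CPM). Its crypt and cycling sum was the lowest (719 against 799 to 962 CPM), and its smooth muscle sum of 3060 CPM was within the 2843 to 3324 CPM of the others. No gene of the enterocyte, epithelial, crypt or smooth muscle lists was at 0 in any library. The part of cell makeup or gut position in these levels was not tested.

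**Figure D4:**
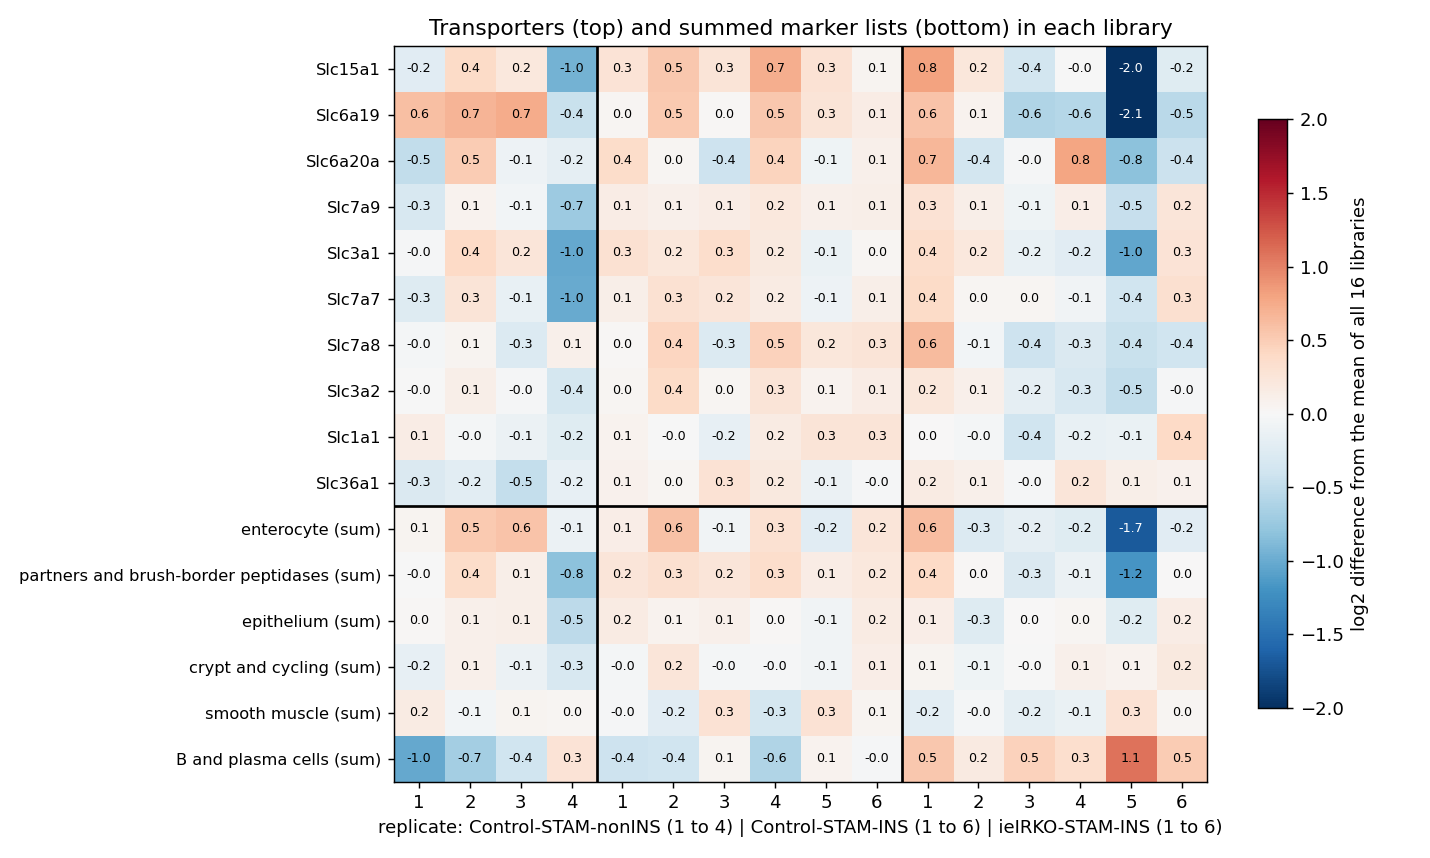
Log2 difference of each library from the mean of all 16 libraries, for the 10 transporters (top rows) and for 6 summed marker lists (bottom rows), with libraries in columns by group and replicate. Control-STAM-nonINS replicate 4 and ieIRKO-STAM-INS replicate 5 are low in most transporters, and Slc36a1 differs from that pattern.

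Both libraries were chosen because the transporters were low in them, so a fit without them is a description. In that fit Slc36a1 was the 1 transporter past the threshold for insulin (log2 fold change 0.42, adjusted p = 0.0215), where 8.31% of all genes passed. None passed by edgeR for the ieIRKO label against the insulin-treated controls, against 0.215% of all genes. Against the untreated controls, Slc36a1 (0.44, adjusted p = 0.0169) and Slc6a19 (-0.80, adjusted p = 0.0421) passed, where 10.3% of all genes did. The only untreated mouse with a low level of Slc6a19 was one of the libraries left out. Slc15a1 was at 336 ± 69.1 CPM (SD, n = 3) in the untreated controls and 336 ± 119 CPM (SD, n = 5) under the ieIRKO label.

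Levels of the 10 genes were correlated pairwise over the 16 libraries, as a description, since the points share group, depth and tissue makeup. Of 45 pairs, 19 had a Pearson's r above 0.5 and 2 were negative, with a median of 0.44. The closest was Slc7a9 with Slc7a7 (r = 0.92), followed by Slc15a1 with Slc3a2 (0.87) and with Slc6a19 (0.87). Without the 2 low libraries these 3 were 0.75, 0.74 and 0.64, the median was 0.35, and 14 pairs were above 0.5. The partners Slc7a9 and Slc3a1 had an r of 0.85 over 16 libraries and 0.41 over 14. Slc36a1 had its lowest r with Slc6a19, at -0.36.

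Outside the 10, the gene most alike in its pattern over the 16 libraries was named for each. It is the gene with the highest r of all those tested, so a high r is bound to arise by this choice. Slc7a9 ran closest to Mep1b (r = 0.97, 0.90 without the 2 low libraries), a brush-border peptidase. Slc15a1 was closest to Clic5 (0.95, then 0.88), a protein of microvilli, and Slc6a19 to Lpar3 (0.95, then 0.90), a receptor for lysophosphatidic acid. For Slc3a1 it was Snx9 (0.96, then 0.89), for Slc7a7 Cyfip1 (0.96, then 0.86) and for Slc3a2 Iqgap2 (0.96, then 0.94). For Slc6a20a it was Igsf9 (0.89, then 0.88), for Slc7a8 Gigyf2 (0.85, then 0.85) and for Slc1a1 Gnaq (0.81, then 0.78). Slc36a1 was closest to Cd244a (0.91, and 0.68 once group means were subtracted), a receptor of natural killer cells measured at a mean of 3.51 CPM.

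Other carriers, mostly of amino acids, were described by lists written from general knowledge. Of 12 other apical carriers, 10 were tested. With insulin 0 were higher and 1 was lower, where 3.73% of all genes were higher and 6.76% lower, so that 1 of 10 is near the background. The median log2 fold change of the 10 was -0.33. The lower one was the proline carrier Slc6a7 (log2 fold change -0.59, SE 0.18, adjusted p = 0.0412 by edgeR). The call was lost without the 2 low libraries (-0.26, adjusted p = 0.236), with upper-quartile factors (-0.58, adjusted p = 0.0622) and with epithelial scaling (-0.77, adjusted p = 0.0894). For the ieIRKO label against the insulin-treated controls 0 of 10 passed by edgeR or DESeq2, and 2 had an unadjusted p under 0.05. By edgeR, 0.223% of all genes passed and 11.3% had such an unadjusted p. Against the untreated controls 0 were higher and 3 lower, namely Slc6a7 (7.82 to 10.7 CPM against 14.5 to 29.6 CPM), the taurine carrier Slc6a6 (-0.83) and the neutral amino acid carrier Slc1a4 (-0.48), where 7.59% of all genes were lower. Slc1a4 did not pass with upper-quartile factors (adjusted p = 0.0605), with epithelial scaling (0.235) or without the 2 low libraries (0.132), which left 2 lower, while DESeq2 called 4 lower. Slc6a6 was at 293 to 477 CPM in the untreated controls and 151 to 292 CPM in the libraries labelled ieIRKO-STAM-INS.

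Among 15 other basolateral and housekeeping carriers, 14 were tested, and with insulin 0 were higher and 4 lower. All 4 were carriers of neutral amino acids. They were Slc38a4 (log2 fold change -1.20, adjusted p = 0.0254), Slc43a1 (-0.74, adjusted p = 0.0318), Slc38a1 (-0.61, adjusted p = 0.00209) and Slc38a2 (-0.49, adjusted p = 0.0293). Slc38a1 was at 69.1 ± 5.97 CPM (SD, n = 4) in the untreated and 45.5 ± 4.66 CPM (SD, n = 6) in the insulin-treated controls, without overlap, and stood at 60.5 ± 9.01 CPM (SD, n = 6) under the ieIRKO label. Slc38a4 and Slc43a1 were near the limit of reliable levels, with group means of 0.917 to 2.11 and 2.53 to 4.21 CPM in the 2 groups. Without the 2 low libraries, Slc43a1 and Slc38a1 passed (2 lower), and with epithelial scaling Slc38a1 alone did (1 lower). The share of all genes lower with insulin was 6.76%.

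For the ieIRKO label against the insulin-treated controls 0 of the 14 passed by edgeR (0.223% of all genes) and DESeq2 called 1 higher. By edgeR 3 had an unadjusted p under 0.05 (11.3% of all genes). Against the untreated controls 4 were lower, where 7.59% of all genes were lower. They were Slc38a4 (-1.29), Slc43a1 (-0.97), the cationic amino acid carrier Slc7a2 (-0.96) and the nucleobase carrier Slc43a3 (-0.56). Of these, 3 passed with epithelial scaling (Slc43a3 adjusted p = 0.125) and 3 without the 2 low libraries (Slc38a4 adjusted p = 0.0501), and DESeq2 called 1 higher and 4 lower. Of all genes, 25.4%, 11.3% and 29.4% had an unadjusted p under 0.05 by edgeR in the 3 comparisons. Of 8 tested lysosomal amino acid and peptide carriers, 0 passed by edgeR in the 3 comparisons, with 1, 3 and 1 at an unadjusted p under 0.05. In the third, 1 was higher by DESeq2 and 1 without the 2 low libraries. Of the 14 tested partner proteins and brush-border peptidases, 0 passed by edgeR in the 3 comparisons, with 1, 3 and 0 at an unadjusted p under 0.05. With insulin, 1 was higher by DESeq2 and 1 without the 2 low libraries. The list had median log2 fold changes of 0.20, -0.35 and -0.19.

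**Figure D5:**
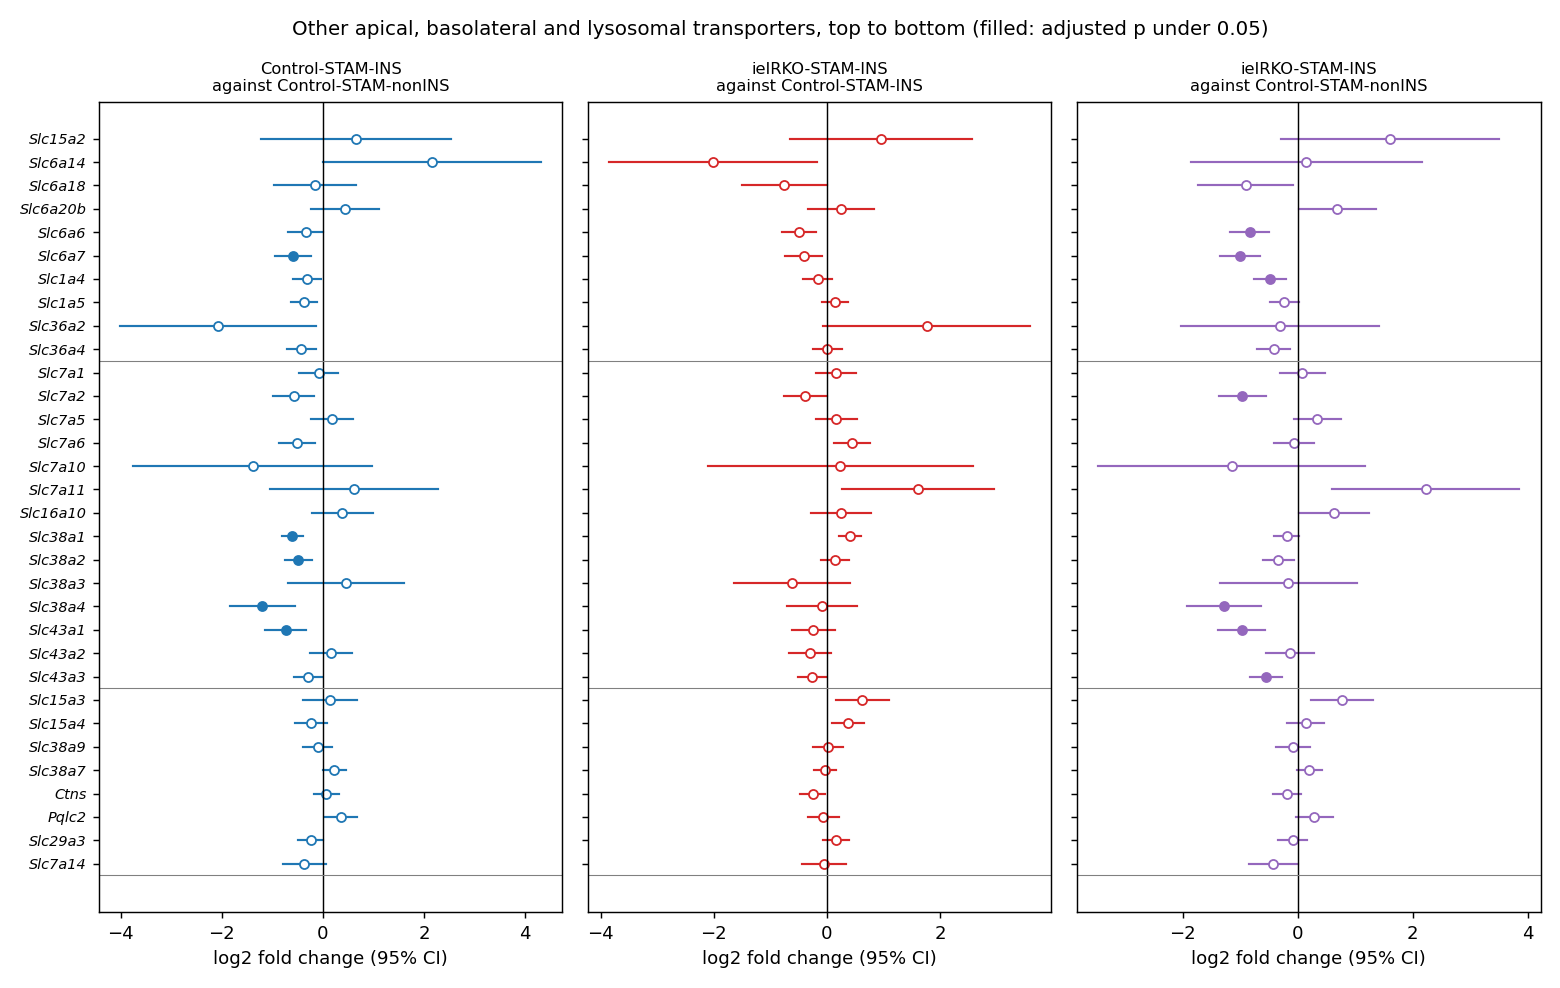
Log2 fold changes with 95% confidence intervals of the other apical (top), basolateral and housekeeping (middle) and lysosomal (bottom) carriers in the 3 comparisons. Most of these carry amino acids or peptides. Points are filled where the adjusted p was under 0.05. Filled points are all on the lower side: 5 with insulin, 0 for the ieIRKO label against insulin-treated controls, and 7 for it against untreated controls.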

How the data were processed

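The whole wall of the ileum of 16 mice was used for total RNA sequencing. Alignment by the authors was to GRCm38 (mm10) in CLC Genomics Workbench, and the deposited values are raw read counts per gene, 1 table per mouse. The library kit was directional, but whether strand was used in counting, and how reads fitting several genes were treated, is not given in the sources used here. Reads of overlapping genes can therefore not be told apart.

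Counts were analysed with edgeR 4.0.16 (filterByExpr with a minimum count of 10 and a minimum total of 15, TMM, robust quasi-likelihood fit to the 3 groups together, Benjamini-Hochberg over 15267 genes) in R 4.3.3. Of the 41740 genes, 22872 had a count. The SE is the log2 fold change divided by the square root of F, and 95% confidence intervals use the normal quantile. Such intervals are narrower than ones matched to the F test. That of Slc7a7 with insulin was 0.0017 to 0.73, though its unadjusted p by edgeR was 0.0648. Depth was 13288018 to 22215382 counts per library. Log2 CPM used a prior count of 2. Exact permutation tests were two-sided over all arrangements, 210 for 4 against 6 and 924 for 6 against 6. Exon lengths and positions came from GENCODE on GRCm38, and upstream sequences from RefSeq on GRCm38.p6. The fit was tested on simulated data. Figures used matplotlib 3.10.9.

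The 10 transporters and all lists were chosen with earlier results of these data known. Named genes are all 10, Insr, up to 4 genes per list and comparison with an adjusted p under 0.05 and the largest changes, and for each transporter the gene with the highest r. Slc6a20b and the overlapping genes were named after their values were seen. Labels call the samples biological replicates. No library was left out, and 1 other gene of the lists is not reported here.

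The numbers of genes and transporters passing, and the log2 fold changes of the transporters, were recomputed in several ways. These were DESeq2 1.42.0, upper-quartile factors, no count filter, 10 counts required in each library and the compared groups alone. A replicate block, epithelial scaling, alpha-defensins left out and each library left out were also run. The other lists were recomputed only with DESeq2, upper-quartile factors, the block, epithelial scaling, alpha-defensins left out and the 2 low libraries left out. Leaving out the 2 low libraries was added after seeing the data. Alternatives for RPKM or TPM were not run, since the values are counts.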

Additional observations from a re-analysis of the deposited data

Results flagged for a closer look

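Of 30 sets of values (10 transporters in 3 groups) examined for a single mouse far from the others of its group, 2 were noted, where chance gives about 1.5. Slc6a19 in Control-STAM-nonINS replicate 4 was at 495 CPM, and the next mouse was at 1019 CPM, so that the gap was 0.831 of the whole range. Slc7a8 in ieIRKO-STAM-INS replicate 1 was at 65.2 CPM, and the next mouse was at 40.7 CPM, so that the gap was 0.718 of the whole range.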

How the results depend on the processing

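Slc36a1 was higher against Control-STAM-nonINS in both insulin-treated groups under every alternative run, and 0 of the 10 transporters passed between the 2 insulin-treated groups under any of them. With epithelial scaling, 701 genes passed with insulin (130 higher, 571 lower) and 776 under the ieIRKO label against Control-STAM-nonINS (209 higher, 567 lower), and 0 transporters in each. That scaling sets Slc6a20a against Control-STAM-INS at 0.015 and Slc3a1 against Control-STAM-nonINS at 0.027, and upper-quartile factors set the latter at 0.015. DESeq2 called 123 genes for the ieIRKO label against Control-STAM-INS, where the main fit called 34. A fit without the alpha-defensin rows, in which those genes cannot be called, called 18. A fit of only the groups compared called 1038 against Control-STAM-nonINS, with fewer mice to estimate the spread. The cause of the other changes was not tested.

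Without both low libraries 2 transporters passed against Control-STAM-nonINS, and these log2 fold changes turned: Slc3a1 with insulin -0.037, the ieIRKO label against Control-STAM-INS Slc6a20a 0.11, Slc7a9 0.0039 and Slc7a7 0.0078, and against Control-STAM-nonINS Slc7a8 0.039 and Slc1a1 -0.0082. Leaving out each library gave 824 to 1877 genes with insulin, 29 to 50 and 1093 to 2274 for the ieIRKO label, and 0 to 3, 0 to 0 and 1 to 2 transporters. Sign changes occurred for Slc6a20a (-0.0066 to 0.36) and Slc3a1 (-0.046 to 0.36) with insulin, for Slc6a20a (-0.21 to 0.11), Slc7a9 (-0.13 to 0.0059), Slc7a7 (-0.14 to 0.0096) and Slc36a1 (-0.011 to 0.073) against Control-STAM-INS, and for Slc15a1 (-0.25 to 0.21), Slc6a20a (-0.077 to 0.34), Slc3a1 (-0.25 to 0.16), Slc3a2 (-0.13 to 0.033) and Slc1a1 (-0.079 to 0.097) against Control-STAM-nonINS.

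The replicate numbers are shared by the groups. Of 14 same-numbered pairs, 4 correlated above 0.1 (median 0.02), against 10 of 70 differently numbered pairs (median 0.0028). Of 16 libraries, 3 correlated best with their own number. With so few pairs, whether the numbers pair the mice cannot be decided. As a replicate block the numbers gave 1397, 30 and 1615 genes and 1, 0 and 1 transporters. Slc6a19 was then at 0.072 with insulin, and Slc3a1 at 0.10 and Slc1a1 at -0.077 against Control-STAM-nonINS. In the other lists the block left 0 higher and 1 lower of the amino acid response genes with insulin and 0 and 2 against Control-STAM-nonINS, called 1 distal ileum and 1 peptidase-list gene higher with insulin and 1 smooth muscle gene lower against Control-STAM-nonINS, and lost the calls of Slc40a1, Cybrd1 and Fabp1 in both comparisons and of Fabp6, Cd79a and Jchain, of Slc43a1 with insulin and of Slc1a4.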

Other observations

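Among 19 tested genes of the amino acid response driven by the transcription factor Atf4, 1 was higher and 3 were lower with insulin, where 3.73% of all genes were higher and 6.76% lower. Pycr1, an enzyme of proline synthesis, was higher (log2 fold change 0.75, adjusted p = 0.0492 from edgeR). Ddit4 (-1.06) and Sesn2 (-0.73), both restrainers of mTORC1, and the transcription factor Cebpb (-1.02) were lower. Without the 2 low libraries, or with epithelial scaling, 0 were higher and 2 lower. For the ieIRKO label against Control-STAM-INS 1 gene passed by edgeR with TMM, while DESeq2 and upper-quartile factors each called 2 lower. The gene passing with TMM was the stress-response gene Nupr1, at 17.1 to 25.3 CPM against 31.3 to 39.2 CPM, without overlap (log2 fold change -0.79, SE 0.14, adjusted p = 0.00926). It passed again without the 2 low libraries (-0.85, adjusted p = 0.00442) and not with the replicate number as a block (-0.81, adjusted p = 0.0625). Against Control-STAM-nonINS 1 was higher, Pycr1 (0.88), and 5 were lower (5.74% and 7.59% of all genes), of which Ddit4 (-0.98), Sesn2 (-0.86), Cebpb (-0.82) and Nupr1 (-0.74) changed most. These counts were 0 higher and 3 lower with epithelial scaling, and 0 higher and 5 lower without the 2 low libraries, where Ddit4 (adjusted p = 0.105) and Cth (0.0617), an enzyme of cysteine synthesis, did not pass and 2 others did.

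Marker lists were counted in the same way. Fabp1, a fatty acid binding protein, was lower with insulin (log2 fold change -2.58, adjusted p = 0.0117) as 1 of 12 enterocyte genes, and against Control-STAM-nonINS both Fabp1 (-2.26) and Treh (-1.25) were lower under the ieIRKO label. Of 8 genes of the proximal small intestine, the iron exporter Slc40a1 was higher and Fabp1 and Cybrd1 lower in the same 2 comparisons. Over all genes, 3.73% were higher and 6.76% lower with insulin, and 5.74% and 7.59% in the other. With epithelial scaling Slc40a1 (adjusted p = 0.0580) and Cybrd1 (0.0911) did not pass with insulin, nor did Cybrd1 (0.111) in the other. With insulin 0 genes of the distal ileum passed by edgeR, 2 had an unadjusted p under 0.05 (25.4% of all genes) and DESeq2 called 1 higher. Krt18 (-0.50) was the 1 of 11 epithelial genes that fell with insulin, and Fabp6 (-0.59) the 1 of 8 genes of the distal ileum that was lower under the ieIRKO label than in Control-STAM-nonINS. Without the 2 low libraries Slc40a1 (adjusted p = 0.0994 and 0.0670) and Cybrd1 (0.182 and 0.134) passed in neither comparison, and for the ieIRKO label Fabp1 (0.0646) and Fabp6 (0.0717) did not pass. Of the B and plasma cell genes, Cd79a (1.86), Mzb1 (1.29) and Jchain (0.87) were higher by edgeR under the ieIRKO label than in Control-STAM-nonINS, where 5.74% of all genes were higher. In the same comparison DESeq2 called 6 of the 6 higher. Cd79a did not pass without the 2 low libraries (adjusted p = 0.0790), and with epithelial scaling Mzb1 alone passed (Cd79a 0.133, Jchain 0.247). For the ieIRKO label against Control-STAM-INS, 0 genes of these lists passed by edgeR, and DESeq2 called 4 of the 6 B and plasma cell genes higher. None of 8 crypt and cycling genes or 7 smooth muscle genes passed by edgeR in any comparison. At an unadjusted p under 0.05 there were 0, 0 and 1 of the former and 1, 0 and 1 of the latter. The shares of all genes were 25.4%, 11.3% and 29.4%. DESeq2 called 1 crypt and cycling gene lower under the ieIRKO label than in Control-STAM-nonINS. Of 10 pancreatic acinar genes, Cela1 alone had enough counts, and its level was lower in both insulin-treated groups than in Control-STAM-nonINS (-0.89 and -0.84).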
